A study of Mus musculus with 37 samples.

Results

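Mast cell genes were followed in the mouse mammary gland after exposure to gamma rays or silicon ions. The 9 genes were Cpa3, Mcpt4, Cma1, Tpsb2, Kit, Ms4a2, Fcer1a, Hdc and Gata2, out of 18820 genes named on the array. Each was taken by its symbol, from a probe set annotated with that symbol alone, and each had 1 such probe set. Mcpt4 also stood on 2 probe sets annotated with several protease symbols, which were not used. Female BALB/c mice had 1 inguinal mammary gland cleared by surgery, were exposed at 10 weeks of age, and gave RNA from the intact gland of the other side. The exposures were 100 cGy of sparsely ionizing gamma rays, 30 cGy or 10 cGy of densely ionizing silicon ions at 350 MeV/amu, or a sham exposure. Glands were taken 1, 4 and 12 weeks later, which made 12 groups of 3 arrays, except for 4 sham arrays at week 4. Glands of weeks 4 and 12 were taken after the mice had been moved from the irradiation site back to their home facility. A difference between week 1 and the later weeks therefore cannot be told apart from an effect of that move. Nothing in the labels says whether the arrays of a group came from separate mice, so that p-values measure the spread between arrays.

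Mast cells are tissue-resident immune cells that store proteases and histamine in granules and release them when IgE on their surface meets antigen. In the mammary gland they lie in the stroma around ducts and vessels and are known for a part in branching of the ducts. The largest set encodes granule proteases: Cpa3 carboxypeptidase A3, Mcpt4 and Cma1 the chymases mast cell protease 4 and 5, and Tpsb2 the tryptase mast cell protease 6. Hdc encodes histidine decarboxylase, which makes histamine. Gata2 encodes a transcription factor needed for mast cell development. Kit encodes the receptor for stem cell factor, on which mast cells depend, and Fcer1a and Ms4a2 encode the alpha and beta chains of the high-affinity IgE receptor. Kit is also known from luminal progenitor cells of the mammary epithelium, Gata2 from endothelial cells and Hdc from basophils.

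The RefSeq promoters (GRCm38.p6) of 3 of the proteases, which varied together over the arrays, are printed here. They run 5′ to 3′ on the gene's strand, from 250 bases before to 50 bases after the transcription start. Capitals mark the GATA factor letters AGATAA or TGATAA on either strand. The Cpa3 promoter is chr3:20242132-20242431, minus strand, that of Mcpt4 chr14:56062261-56062560, minus strand, and that of Cma1 chr14:55944626-55944925, minus strand.
Cpa3: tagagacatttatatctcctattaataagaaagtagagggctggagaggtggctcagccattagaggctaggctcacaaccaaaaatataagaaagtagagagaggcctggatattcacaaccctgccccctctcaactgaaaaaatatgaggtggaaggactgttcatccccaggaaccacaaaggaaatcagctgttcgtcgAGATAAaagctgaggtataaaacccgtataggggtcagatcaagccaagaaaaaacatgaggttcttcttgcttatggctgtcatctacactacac
Mcpt4: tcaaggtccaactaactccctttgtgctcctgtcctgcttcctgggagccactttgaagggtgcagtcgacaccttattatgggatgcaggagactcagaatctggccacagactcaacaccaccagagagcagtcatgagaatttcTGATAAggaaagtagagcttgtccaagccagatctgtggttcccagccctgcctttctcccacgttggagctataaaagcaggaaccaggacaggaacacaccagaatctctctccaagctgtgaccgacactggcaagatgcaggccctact
Cma1: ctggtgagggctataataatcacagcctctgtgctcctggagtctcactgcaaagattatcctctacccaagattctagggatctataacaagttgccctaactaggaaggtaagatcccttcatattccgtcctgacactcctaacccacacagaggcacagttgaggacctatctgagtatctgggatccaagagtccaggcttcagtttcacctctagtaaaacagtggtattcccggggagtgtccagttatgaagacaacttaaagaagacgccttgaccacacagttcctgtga
AGATAA began at position -46 from the start in Cpa3, and TGATAA at position -103 in Mcpt4, both on the gene's strand. The Cma1 window held neither. Of the 9 genes, 8 had a promoter in the table. AGATAA occurred in Cpa3, Fcer1a and Ms4a2, and in 11.2% of all 32851 promoters of the table. TGATAA occurred in Mcpt4, and in 9.05% of all promoters. Of the E-box letters that Mitf can bind, CATGTG occurred in Fcer1a and in 14.2% of all promoters, and CACGTG in none of the members' windows and in 7.15% of all.

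The genes lie apart in the genome (GRCm38.p6). Mcpt4 (chr14:56059744-56062310) and Cma1 (chr14:55941451-55944675) belong to the chymase cluster of chromosome 14. Cpa3 is at chr3:20215616-20242209, Tpsb2 at chr17:25366308-25368096, Kit at chr5:75574987-75656722, Hdc at chr2:126593659-126624025 and Gata2 at chr6:88193891-88207032. Ms4a2 is at chr19:11615517-11623790 and Fcer1a at chr1:173221269-173227232. Levels are given as the deposited log2 values, in which 1 unit is a doubling within a probe set, and are compared only within a gene. Over the 37 arrays the mean was 8.69 ± 0.49 for Cpa3, 6.82 ± 0.45 for Mcpt4, 4.74 ± 0.28 for Cma1 and 6.12 ± 0.23 for Tpsb2 (SD over arrays). It was 8.46 ± 0.41 for Kit, 6.13 ± 0.34 for Hdc and 6.44 ± 0.19 for Gata2. Ms4a2, at 2.95 ± 0.22, and Fcer1a, at 2.75 ± 0.18, lay below the limit of log2 4.04 that a gene's mean had to pass to be tested. Thus 7 of the 9 members were among the 13174 genes tested, and the values of the IgE receptor chains are description.

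The arrays had median values between 5.04 and 5.25. Sham array 3 of week 1 stood apart by its lymphocyte genes. The mean of 17 T and NK cell genes lay between 4.33 and 7.21 in the 9 irradiated arrays of week 1, against 7.64 in that sham array and 5.80 and 4.62 in the other sham arrays. The mean of 17 B cell genes lay between 4.69 and 8.09 in the irradiated arrays, against 8.63 in that sham array and 6.61 and 5.33 in the other sham arrays. Sham array 1 of week 4 had the lowest median correlation with the other arrays, 0.965. Values without sham array 3 of week 1 are given beside the differences of that week. Mcpt8, Prss34, Cd200r3, Il4 and Il6, taken as genes of basophils, all lay below the limit for testing. Their mean ranged between 2.82 and 3.18 in irradiated arrays of week 1 and between 2.76 and 2.97 in sham arrays of that week.

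At week 1 the means of the proteases and Hdc lay higher, and that of Kit lower, in irradiated than in sham glands, with no gene of the 9 passing the test over all genes. The differences of Tpsb2 and Cma1 leaned on sham array 3, and that of Kit on sham array 2. Cpa3 read 8.46, 9.09 and 8.98 in 100 cGy gamma glands, 8.94, 8.69 and 8.40 in 30 cGy Si glands and 8.41, 7.85 and 8.42 in 10 cGy Si glands, against 7.97, 7.69 and 7.32 in sham glands. All irradiated arrays except 1 of the 10 cGy Si arrays lay above the highest sham array. Mcpt4 read 6.68, 6.92 and 6.78 in 100 cGy gamma glands, 7.07, 6.66 and 6.59 in 30 cGy Si glands and 6.47, 5.84 and 6.50 in 10 cGy Si glands, against 6.32, 5.99 and 5.90 in sham glands. Here too 8 of the 9 irradiated arrays were above every sham array, and the remaining 10 cGy Si array was below them all. Cma1 read 4.68, 4.81 and 4.62 in 100 cGy gamma glands, 4.90, 4.65 and 4.40 in 30 cGy Si glands and 4.52, 4.22 and 4.54 in 10 cGy Si glands, against 4.54, 4.28 and 3.90 in sham glands. The gamma arrays of Cma1 stood above the sham arrays, and those of both silicon doses overlapped them. Tpsb2 read 6.14, 6.56 and 6.42 in 100 cGy gamma glands, 6.14, 6.33 and 5.97 in 30 cGy Si glands and 6.01, 5.80 and 6.10 in 10 cGy Si glands, against 6.19, 5.95 and 5.36 in sham glands. For this tryptase each irradiated group overlapped the sham arrays, of which array 3 was the lowest. In RNA of whole tissue, a difference in the number of mast cells and one in RNA per mast cell cannot be told apart.

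**Figure D1:**
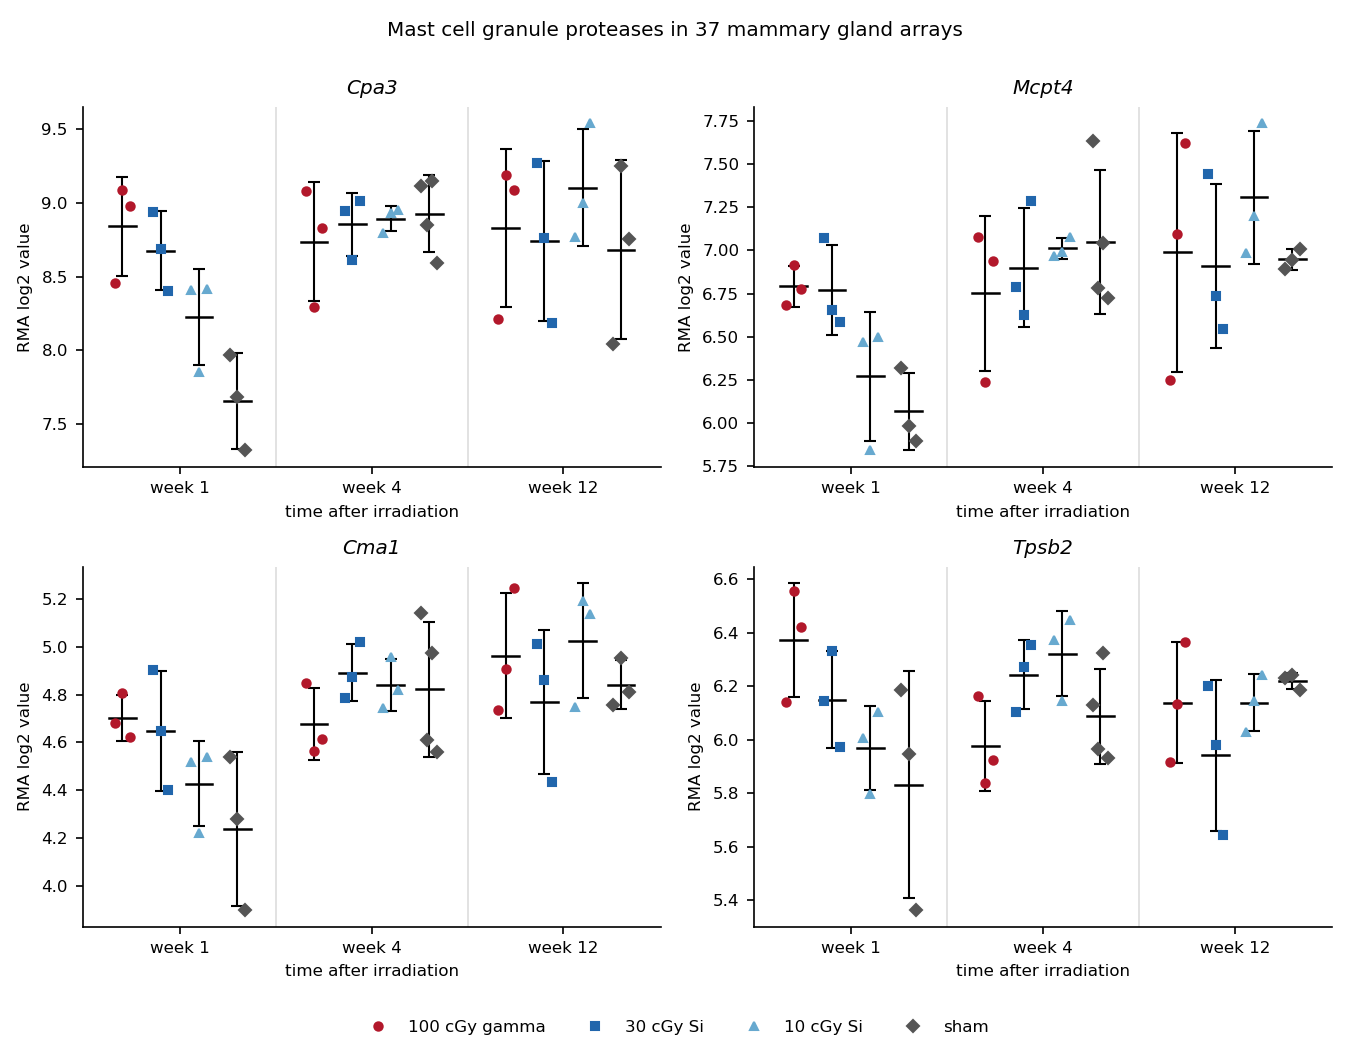
Levels of the 4 granule protease genes (RMA log2 value) in each of the 37 arrays by week after irradiation. Points are arrays, horizontal lines group means and bars the SD (3 arrays a group, 4 in sham week 4). At week 1 the sham arrays of Cpa3 lie between 7.32 and 7.97 and the gamma arrays between 8.46 and 9.09, and at weeks 4 and 12 the groups overlap.

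Hdc was the gene whose irradiated and sham arrays of week 1 did not overlap at all. Hdc read 6.28, 6.83 and 6.20 in 100 cGy gamma glands, 6.86, 6.48 and 6.32 in 30 cGy Si glands and 6.54, 6.48 and 6.37 in 10 cGy Si glands, against 5.81, 6.10 and 5.61 in sham glands. Of all genes tested, 3.05% had irradiated and sham ranges that did not overlap at week 1. Gata2 read 6.87, 6.72 and 6.64 in 100 cGy gamma glands, 6.59, 6.67 and 6.48 in 30 cGy Si glands and 6.65, 6.70 and 6.81 in 10 cGy Si glands, against 6.43, 6.43 and 6.57 in sham glands. All but 1 of its irradiated arrays, a 30 cGy Si array, were above the sham arrays. Kit read 8.33, 7.59 and 7.83 in 100 cGy gamma glands, 8.03, 7.91 and 8.31 in 30 cGy Si glands and 8.18, 8.33 and 8.09 in 10 cGy Si glands, against 8.67, 9.07 and 7.90 in sham glands. Sham arrays 1 and 2 had more Kit than any irradiated array, and sham array 3 had less than 7 of the 9 irradiated arrays.

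The receptor chains stayed near the bottom of the scale. Ms4a2 ranged between 2.70 and 3.30 in irradiated arrays of week 1, with a median of 2.94, against 2.97, 2.77 and 2.34 in sham arrays. Fcer1a ranged between 2.57 and 2.84 in irradiated arrays, with a median of 2.71, against 2.67, 2.52 and 2.55 in sham arrays. Both sets of ranges overlapped.

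**Figure D2:**
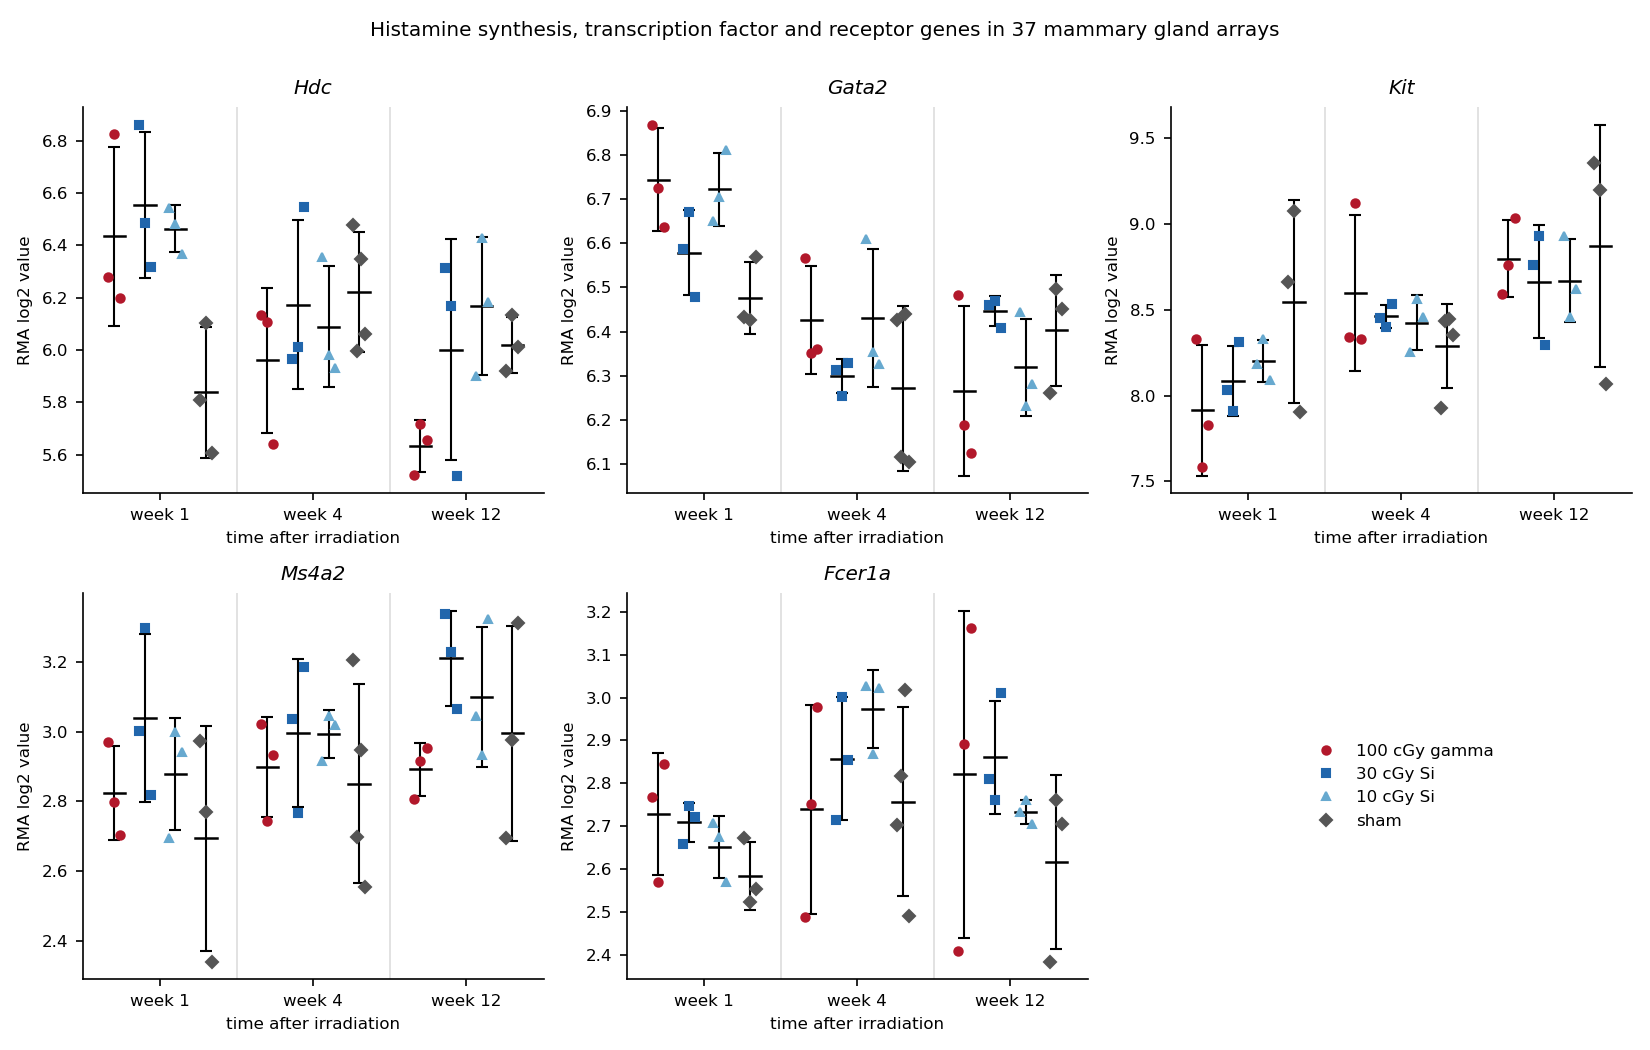
Levels of Hdc, Gata2, Kit, Ms4a2 and Fcer1a (RMA log2 value) in each of the 37 arrays by week after irradiation. Points are arrays, horizontal lines group means and bars the SD. At week 1 all 9 irradiated arrays of Hdc lie above the highest sham array at 6.10, and Gata2 lies higher at week 1 than at weeks 4 and 12.

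Differences from sham were estimated with limma on the 12 group means of all arrays, and p-values were adjusted by the Benjamini-Hochberg method over the 13174 genes. A gene was called at an adjusted p under 0.05. The 3 irradiations of week 1 share the same 3 sham arrays, so that their differences are not independent of each other. After 100 cGy gamma at week 1, 0 of 7 tested members were called, where 0.0228% of all genes were. At an unadjusted limma p under 0.05 all 7 passed, 6 higher and Kit lower, where 7.82% of all genes passed. Cpa3 was 1.18 ± 0.30 higher on the log2 scale (SE, 95% interval 0.58 to 1.79), a 2.27-fold difference with an adjusted limma p of 0.285. Hdc was 0.60 ± 0.21 higher and Mcpt4 0.72 ± 0.29 higher (SE). Tpsb2 was 0.54 ± 0.17, Cma1 0.46 ± 0.18 and Gata2 0.27 ± 0.11 higher (SE). The difference of Kit was -0.63 ± 0.28 (SE). Ranges of gamma and sham arrays did not overlap for Cpa3, Mcpt4, Cma1, Hdc and Gata2, and for 14.3% of all genes. The median difference over the 9 members was 0.46, against 0.01 over all genes tested.

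After 30 cGy Si at week 1, 0 members were called by limma, where 0.0228% of all genes were, and 4 of 7 passed at an unadjusted p under 0.05, where 12.0% of all genes did. Cpa3 was 1.02 ± 0.30 higher (SE, 95% interval 0.41 to 1.63, limma adjusted p = 0.261), Hdc 0.71 ± 0.21, Mcpt4 0.70 ± 0.29 and Cma1 0.41 ± 0.18 higher (SE). Ranges did not overlap for Cpa3, Mcpt4 and Hdc, and for 20.7% of all genes. The median over the members was 0.34, against 0.03 over all genes. After 10 cGy Si, 0 members were called by limma, where 0.0835% of all genes were, and 2 of 7 passed at an unadjusted p under 0.05, where 5.40% of all genes did. These were Hdc, 0.62 ± 0.21 higher, and Gata2, 0.25 ± 0.11 higher (SE), and the ranges of both stood apart from sham, as did those of 11.8% of all genes. The median over the members was 0.19, against 0.01 over all genes. The differences from sham of Cpa3 and Mcpt4 were smaller at 10 cGy than at 30 cGy of silicon or 100 cGy of gamma rays, and the irradiated groups were not tested against each other.

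**Figure D3:**
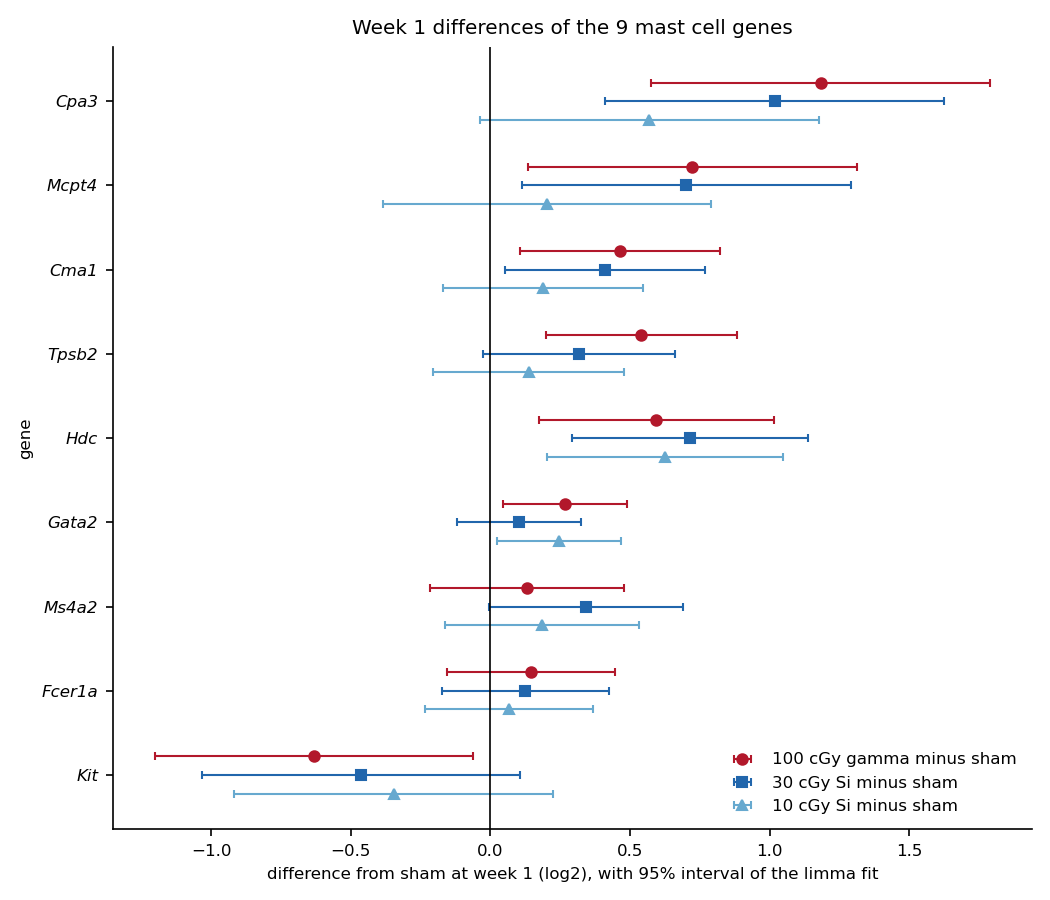
Difference from sham at week 1 (log2) of the 9 genes for each irradiation, with the 95% interval of the limma fit. Cpa3 has the largest estimates after gamma rays, 1.18, and after 30 cGy of silicon, 1.02. After 10 cGy of silicon Hdc has the largest, 0.62, with Cpa3 at 0.57. Kit lies below 0 after each irradiation.

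Over the 9 irradiated arrays of week 1 Cpa3 averaged 8.58 ± 0.39 in irradiated glands (SD, n = 9) and 7.66 ± 0.32 in sham glands (SD, n = 3). Hdc averaged 6.48 ± 0.23 in irradiated glands and 5.84 ± 0.25 in sham glands over the same arrays. The limma differences were 0.92 ± 0.24 for Cpa3 (95% interval 0.43 to 1.42, 1.90-fold) and 0.64 ± 0.17 for Hdc (95% interval 0.30 to 0.99, 1.56-fold), both with an adjusted p of 0.180. Mcpt4 was 0.54 ± 0.23, Cma1 0.35 ± 0.14, Tpsb2 0.33 ± 0.14 and Gata2 0.21 ± 0.09 higher, and the difference of Kit was -0.48 ± 0.23 (SE). Without sham array 3 that of Tpsb2 was 0.097 (limma adjusted p = 0.870) and that of Cma1 0.18 (limma adjusted p = 0.751). Thus 0 of 7 members were called, where 0.0759% of all genes were, and 7 of 7 passed at an unadjusted limma p under 0.05, 6 of them higher, where 10.0% of all genes did. The median over the 9 members was 0.33, and 0.18 without sham array 3, against 0.01 over all genes with every array. When arrays were weighted by their quality in limma, 3 members were called, where 1.65% of all genes were, with differences of 0.80 for Cpa3 (adjusted p = 0.0468), 0.63 for Hdc (adjusted p = 0.0381) and -0.64 for Kit (adjusted p = 0.0483). In the same weighted fit Cpa3 (0.89, adjusted p = 0.0429) and Hdc (0.74, adjusted p = 0.0311) were called after 30 cGy Si, where 3.11% of all genes were. Over the alternatives tried, the adjusted p for the irradiations together ranged between 0.0468 and 0.390 for Cpa3, between 0.0381 and 0.341 for Hdc and between 0.0483 and 0.815 for Kit.

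The counts at the unadjusted p changed when single arrays were left out. Such fits hold fewer arrays, and the share of all genes passing in them was not recorded. Without sham array 3 of week 1, 4 of 7 members passed after gamma rays and 4 of 7 for the irradiations together, and without sham array 2 the count for the irradiations together was also 4. Without gamma array 2 of week 1, 4 passed after gamma rays, and without 30 cGy Si array 1, 2 passed after 30 cGy Si. For 10 cGy Si 1 member passed without its array 3 or without sham array 2. Without sham array 3 the difference of the irradiations together was 0.75 for Cpa3, 0.53 for Hdc, 0.46 for Mcpt4, 0.25 for Gata2 and -0.80 for Kit, and without sham array 2 that of Kit was -0.22. After gamma rays alone, leaving out sham array 3 gave 0.31 for Tpsb2, 0.29 for Cma1 and a median over the members of 0.31. After 30 cGy Si it gave 0.24 for Cma1 and a median of 0.17, and after 10 cGy Si a median of 0.05. Without sham array 2 the difference of Kit after gamma rays was -0.37. Without sham array 1 the difference of the irradiations together was 0.51 for Tpsb2 and 0.50 for Cma1, and the median over the members was 0.50. With the mean level of the T, NK and B cell genes as a covariate it was 0.92 for Cpa3, 0.61 for Hdc and -0.56 for Kit.

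Other cell types of the stroma and epithelium moved with these differences. The mean of 11 macrophage genes lay between 7.96 and 8.91 in irradiated arrays of week 1, against 7.74 to 8.16 in sham arrays, and 7 of the 11 were higher at an unadjusted limma p under 0.05 with a median difference of 0.56. Of 17 fibroblast genes, 7 were higher at that p, with a median of 0.27. Of all genes tested, 10.0% passed at that p in either direction, with a median of 0.01. These counts were not taken without sham array 3. The mean of the fibroblast genes lay between 9.19 and 9.62 in irradiated arrays and between 8.89 and 9.39 in sham arrays. None of the macrophage or fibroblast genes was called by limma for the irradiations together at week 1. The mean of 15 luminal epithelial genes moved with Kit, and lay between 8.07 and 8.47 in irradiated arrays, against 8.78 and 8.92 in sham arrays 1 and 2 and 7.65 in sham array 3. The part of these cell types in the differences of the mast cell genes was not tested.

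At weeks 4 and 12 no member passed a test against sham at any irradiation. Cpa3 lay between 8.29 and 9.08 in irradiated glands of week 4, with a median of 8.93, against 9.12, 8.85, 9.15 and 8.59 in sham glands. At week 12 it lay between 8.19 and 9.54 in irradiated glands, with a median of 9.00, against 8.04, 9.25 and 8.75 in sham glands. Irradiated and sham arrays of Cpa3 overlapped at both weeks. Hdc read 5.52, 5.72 and 5.66 in 100 cGy gamma glands of week 12, against 5.92, 6.13 and 6.01 in sham glands. Those Hdc ranges did not overlap, as for 5.37% of all genes, and they lay in the opposite order to week 1. Fcer1a was the other member with separate ranges at these weeks, at 2.81, 2.76 and 3.01 in 30 cGy Si glands of week 12, against 2.38, 2.76 and 2.71 in sham glands, with the nearest arrays equal to 2 decimals, as for 7.21% of all genes. At week 4, 0 of 7 members passed even an unadjusted limma p under 0.05 after gamma rays, 30 cGy Si, 10 cGy Si or the irradiations together, where 5.56%, 8.08%, 3.17% and 5.83% of all genes passed. At week 12 the count was 0 in the same 4 comparisons, where 2.82%, 5.28%, 4.70% and 4.43% of all genes passed. Of all genes tested, 0% were called in each of these 8 comparisons. The smallest p of a member belonged at week 4 to Gata2 after gamma rays, at 0.15 ± 0.10 (SE, 95% interval -0.05 to 0.36, limma adjusted p = 0.798), and after 10 cGy Si, at 0.16 ± 0.10 (SE, limma adjusted p = 0.9998), and to Tpsb2 after 30 cGy Si, at 0.16 ± 0.16 (SE, limma adjusted p = 0.806). At week 12 it belonged to Hdc after gamma rays, at -0.39 ± 0.21 (SE, 95% interval -0.81 to 0.03), to Tpsb2 after 30 cGy Si, at -0.28 ± 0.17 (SE), and to Cpa3 after 10 cGy Si, at 0.42 ± 0.30 (SE). The medians over the 9 members were 0.09 at week 4 and 0.07 at week 12 for the irradiations together, against 0.03 and 0.01 over all genes.

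Averaged over the 3 weeks, 0 members were called after any of the irradiations. At an unadjusted limma p under 0.05 Cpa3 alone passed after gamma rays, 0.38 ± 0.17 higher (SE, adjusted p = 0.901), where 5.36% of all genes did. It was the member of smallest p after 30 cGy Si, at 0.33 ± 0.17, and after 10 cGy Si, at 0.32 ± 0.17 (SE), where 0 members and 14.7% and 6.71% of all genes passed. Of all genes 0.0304% were called after 30 cGy Si, and 0% after gamma rays and after 10 cGy Si. Whether the effect of an irradiation differed between weeks was tested with a moderated F test in limma. It called 0 members and 0 genes (adjusted p = 0.9996 for each tested member), and Cpa3, Tpsb2 and Hdc were the members under 0.05 before adjustment, as were 3.96% of all genes. The difference between week 1 and the later weeks in the effect of the irradiations together, a comparison added after the values were seen, was 0.87 ± 0.29 for Cpa3, 0.76 ± 0.20 for Hdc and 0.36 ± 0.16 for Tpsb2 (SE). None of the members, and 0% of all genes, were called (smallest adjusted limma p 0.475), and these 3 were the members at an unadjusted p under 0.05, where 6.38% of all genes were.

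Averaged over the 4 treatments, the chymases and Cpa3 rose, and Gata2 fell, at the later weeks. Cpa3 averaged 8.35 ± 0.55 at week 1, 8.86 ± 0.24 at week 4 and 8.84 ± 0.48 at week 12 (SD over 12, 13 and 12 arrays). From the 12-group limma model, 4 of 7 members were called at week 4 against week 1, where 25.8% of all genes were called and 36.4% passed at an unadjusted p under 0.05. Cpa3 rose by 0.50 ± 0.15 (SE, limma adjusted p = 0.0112), Mcpt4 by 0.45 ± 0.14 (adjusted p = 0.0183) and Cma1 by 0.30 ± 0.09 (adjusted p = 0.00967). Gata2 fell by 0.27 ± 0.05 (SE, limma adjusted p = 0.000314), and Hdc, at -0.21 ± 0.10 (SE), passed at the unadjusted p alone and was called with array weights (limma adjusted p = 0.0303). The share of all genes called with the weights at week 4 was not recorded. At week 12 against week 1, 6 of 7 members were called, where 35.5% of all genes were called and 44.7% passed at the unadjusted p. Cpa3 rose by 0.49 ± 0.15, Mcpt4 by 0.56 ± 0.14, Cma1 by 0.39 ± 0.09 and Kit by 0.56 ± 0.14 (SE, largest of their adjusted limma p-values 0.0110). Hdc fell by 0.37 ± 0.10 (limma adjusted p = 0.00625) and Gata2 fell by 0.27 ± 0.05 (limma adjusted p = 0.000261). The median over the 9 members was 0.16 at week 4 and 0.19 at week 12, against -0.0034 and -0.02 over all genes. Between weeks 12 and 4 0 members were called by limma, where 1.64% of all genes were, and Kit alone passed at an unadjusted p under 0.05, at 0.31 ± 0.14 (SE), where 15.9% of all genes did. With array weights Kit was called there, at 0.37 (limma adjusted p = 0.0493), where 4.1% of all genes were.

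Sham glands and irradiated glands were also compared with their own week 1, contrasts added after the values were seen. In sham glands the 3 proteases Cpa3, Mcpt4 and Cma1 were called at weeks 4 and 12 together against week 1, where 9.41% of all genes were called and 23.6% passed at the unadjusted p, and Tpsb2, at 0.32 ± 0.14 (SE), passed at the unadjusted p. Cpa3 rose by 1.15 ± 0.25 (SE, 2.21-fold, limma adjusted p = 0.00499), Mcpt4 by 0.93 ± 0.24 (adjusted p = 0.0159) and Cma1 by 0.59 ± 0.15 (adjusted p = 0.0121). The 7 later sham arrays of each lay above the 3 of week 1, a separation found in 8.17% of all genes. In a limma fit of the 10 sham arrays alone none of the 3 was called, with adjusted p-values of 0.153 for Cpa3, 0.138 for Mcpt4 and 0.195 for Cma1. Without sham array 3 of week 1 the count was 1, with Mcpt4 (limma adjusted p = 0.0729) and Cma1 (limma adjusted p = 0.119) lost. Mcpt4 was also lost without sham array 2 of week 1 (limma adjusted p = 0.0676), and Cma1 with array weights (limma adjusted p = 0.0923). In irradiated glands 4 members were called by limma, where 30.5% of all genes were called and 40.3% passed at the unadjusted p. Cma1 rose by 0.27 ± 0.09 and Kit by 0.54 ± 0.14, Hdc fell by 0.48 ± 0.10 and Gata2 fell by 0.32 ± 0.05 (SE, largest of their adjusted p-values 0.0206). The call of Cma1 was lost without 30 cGy Si array 3 of week 1 (limma adjusted p = 0.0637), without 10 cGy Si array 2 of week 1 (limma adjusted p = 0.0582) and after quantile normalization (limma adjusted p = 0.0600). Mcpt4, at 0.37 ± 0.14 (SE, limma adjusted p = 0.0532), passed at the unadjusted p alone. It was called with the replicate number as a block (limma adjusted p = 0.0467), with array weights (limma adjusted p = 0.0135) and in 7 of the fits that left out 1 array. For these alternative fits the share of all genes called was not recorded. In the model of all arrays Cpa3 was at 0.28 ± 0.15 (SE, limma adjusted p = 0.163). No member was called for the difference between these changes, which is the difference between weeks in the effect of the irradiations given above.

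Genes of other cell types were read against the 25.8% of all genes called at week 4 and the 35.5% called at week 12 against week 1. Of 12 endothelial genes 6 fell and 0 rose at week 4, and 6 fell and 1 rose at week 12 (limma, adjusted p under 0.05), and of 9 adipocyte genes 4 fell at week 4 and 5 at week 12, which are larger shares. Of 15 luminal epithelial genes 2 rose and 1 fell at week 4, and 3 rose and 1 fell at week 12, and of 11 macrophage genes 2 rose at each, which are smaller shares than those of all genes. Their part in the changes of the mast cell genes was not tested.

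In the order of the 12 groups by mean level, the sham group of week 1 was the lowest for Cpa3, Mcpt4, Cma1, Tpsb2, Ms4a2 and Fcer1a. For Cpa3 the first 10 groups ran between 9.10 ± 0.40 in 10 cGy Si glands of week 12 and 8.68 ± 0.27 in 30 cGy Si glands of week 1, each neighbour within the larger SD of the pair. Below them came 10 cGy Si glands of week 1, at 8.23 ± 0.33, and sham glands of week 1, at 7.66 ± 0.32, each a step larger than the SD of either neighbour (SD, 3 arrays each). For Hdc the order had the 3 irradiated groups of week 1 on top, with means between 6.43 and 6.55, sham glands of week 1 at 5.84 ± 0.25 second from the bottom, and gamma glands of week 12 at 5.63 ± 0.10 at the bottom (SD). For Gata2 the 4 groups of week 1 were the highest, between 6.74 ± 0.12 in gamma glands and 6.48 ± 0.08 in sham glands (SD). Kit was lowest in gamma glands of week 1, at 7.91 ± 0.38, and highest in sham glands of week 12, at 8.87 ± 0.71 (SD). No neighbouring groups of Cma1, Tpsb2, Kit, Ms4a2, Fcer1a or Hdc were farther apart than the larger of their SDs.

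Across the 37 arrays the proteases varied together, while the correlations of Kit and Gata2 with Cpa3 did not pass the test. The correlation of each other member with Cpa3 was tested with 100000 permutations, adjusted over the 8 relations. For Mcpt4 it was r = 0.877 and rho = 0.873 (adjusted permutation p = 4e-05, from the smallest p these permutations can give), and r was 0.842 without the 2 arrays farthest from the median of Cpa3. For Cma1 it was r = 0.849 and rho = 0.8293 (adjusted permutation p = 4e-05), with 0.774 without the 2 arrays. For Tpsb2 it was r = 0.667 (adjusted permutation p = 8e-05) and rho = 0.591, with 0.541 without the 2 arrays. Since groups differ in their means, r was also taken on the deviations from the 12 group means, where it was 0.787 for Mcpt4, 0.747 for Cma1 and 0.693 for Tpsb2. Within weeks 1, 4 and 12 it was 0.940, 0.853 and 0.790 for Mcpt4, 0.905, 0.715 and 0.759 for Cma1, and 0.862, 0.530 and 0.593 for Tpsb2. Permutation p-values given below for the deviations ignore that the 12 group means were taken out, and are therefore too small.

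**Figure D4:**
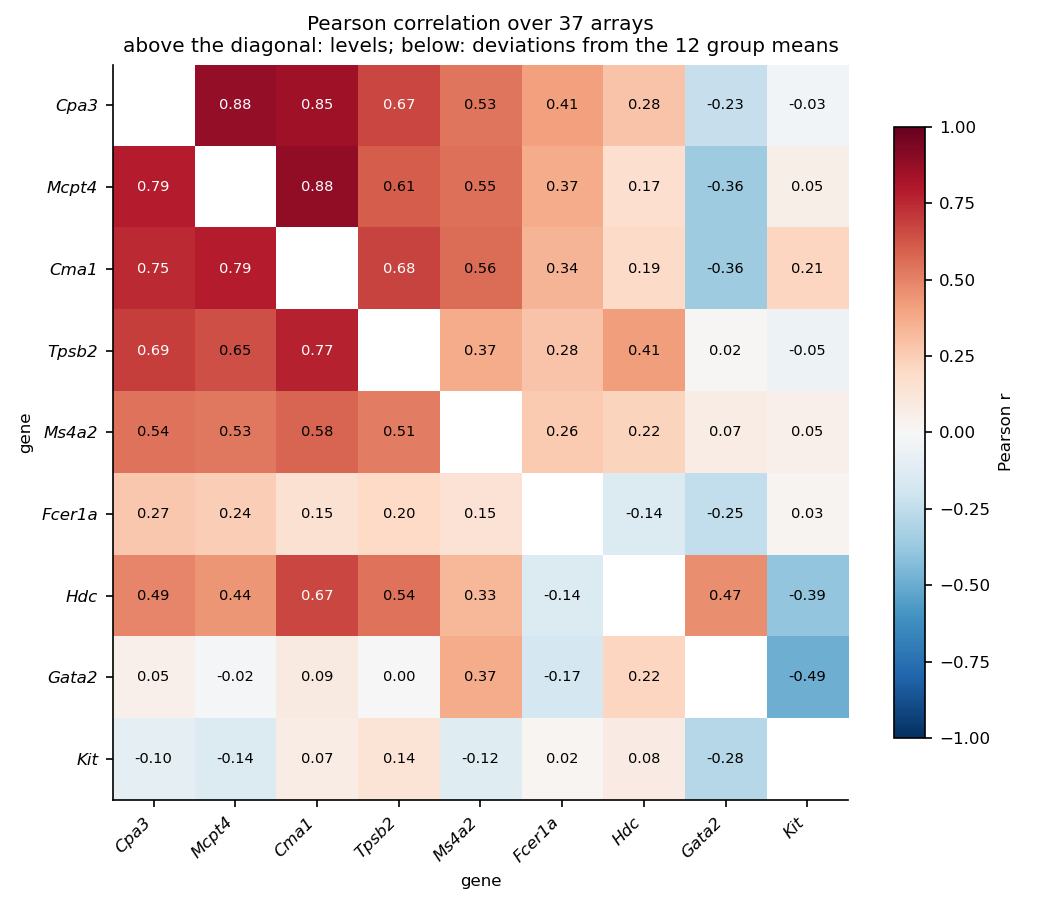
Pearson correlation between the 9 genes over 37 arrays, of the levels above the diagonal and of the deviations from the 12 group means below it. Cpa3, Mcpt4, Cma1 and Tpsb2 form the block of high values, between 0.608 and 0.884 for levels, while Kit with Cpa3 stands at -0.029.

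Hdc followed Cpa3 within groups more than across them. Its r was 0.282 over all arrays (rho = 0.248, adjusted permutation p = 0.123), 0.192 without the 2 arrays, 0.492 on the deviations from group means (adjusted permutation p = 0.0033), and 0.754, 0.322 and 0.546 within weeks 1, 4 and 12. Ms4a2 had r = 0.535 (rho = 0.404, adjusted permutation p = 0.0015), with 0.374 without the 2 arrays (adjusted permutation p = 0.0558). Its r was 0.541 on the deviations (adjusted permutation p = 0.0012), and 0.409, 0.740 and 0.524 within weeks 1, 4 and 12. Fcer1a had r = 0.411 (rho = 0.385, adjusted permutation p = 0.0187), and passed with the 2 arrays but not without them, at 0.319 (adjusted permutation p = 0.0959), and it was 0.266 on the deviations. Within the weeks it was 0.471, 0.0686 and 0.431. Kit had r = -0.029 with rho = 0.084 (adjusted permutation p = 0.861), r = -0.063 without the 2 arrays, and -0.577, -0.611 and 0.037 within weeks 1, 4 and 12. Gata2 had r = -0.233 with rho = -0.201 (adjusted permutation p = 0.190), r = -0.231 without the 2 arrays, and 0.391, 0.378 and -0.211 within the weeks. With the chymases its r over all arrays was -0.356 for Mcpt4 and -0.357 for Cma1, against -0.020 and 0.088 on the deviations.

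Kit varied with the luminal epithelium, and other members with several stromal lists. Of 54 relations between the members and the lists, 15 passed at an adjusted permutation p under 0.05 over all arrays, and 8 of these also on the deviations from group means. The p-values on the deviations have the limit named above, so the count of 8 may be too high. Among these 54 relations of the 9 members with 6 cell type lists, Kit and the mean of the luminal genes had r = 0.759 and rho = 0.780 (adjusted permutation p = 0.00027), 0.761 without the 2 arrays farthest from the median of the luminal mean, 0.804 on the deviations from group means, and 0.703, 0.664 and 0.867 within weeks 1, 4 and 12. Cpa3 and the mean of the macrophage genes had r = 0.672 and rho = 0.675 (adjusted permutation p = 0.00027), 0.731 without 2 arrays and 0.588 on the deviations. Within the weeks that relation was 0.884 at week 1, 0.101 at week 4 and 0.792 at week 12, so it did not hold within week 4. Cpa3 and the fibroblast mean had r = 0.491 (rho = 0.478, adjusted permutation p = 0.00818), 0.591 without 2 arrays, and 0.857, -0.021 and 0.836 within the weeks. Gata2 and the endothelial mean had r = 0.638 and rho = 0.678 (adjusted permutation p = 0.000405), 0.637 without 2 arrays, but 0.315 on the deviations (adjusted permutation p = 0.159) and -0.305, 0.102 and 0.843 within the weeks. The relation was not particular to the endothelial list. Gata2 and the adipocyte mean had r = 0.595 and rho = 0.635 (adjusted permutation p = 0.00108), and 0.349 on the deviations (adjusted permutation p = 0.110). Within the weeks it was 0.316, 0.277 and 0.257.

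Mcpt4 ran against the endothelial mean, with r = -0.616 and rho = -0.633 (adjusted permutation p = 0.000432), -0.635 without 2 arrays, -0.602 on the deviations (adjusted permutation p = 0.00081), and 0.094, -0.677 and -0.482 within weeks 1, 4 and 12, so the relation was not seen within week 1. Cma1 (r = -0.547, adjusted permutation p = 0.00192) and Cpa3 (r = -0.439, adjusted permutation p = 0.0248) also passed over all arrays. On the deviations they did not, at -0.32 (adjusted permutation p = 0.154) and -0.30 (adjusted permutation p = 0.166). Tpsb2 did not pass over all arrays (r = -0.150, adjusted permutation p = 0.524). Tpsb2 and the fibroblast mean had r = 0.634 and rho = 0.602 (adjusted permutation p = 0.0009), 0.706 without 2 arrays, 0.625 on the deviations, and 0.928, 0.437 and 0.623 within the weeks. Kit and the adipocyte mean had r = -0.639 and rho = -0.616 (adjusted permutation p = 0.000405), -0.692 without 2 arrays, -0.441 on the deviations, and -0.385, -0.639 and -0.532 within the weeks. All arrays hold RNA of the whole gland, so that the lists and the members share each library.

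**Figure D5:**
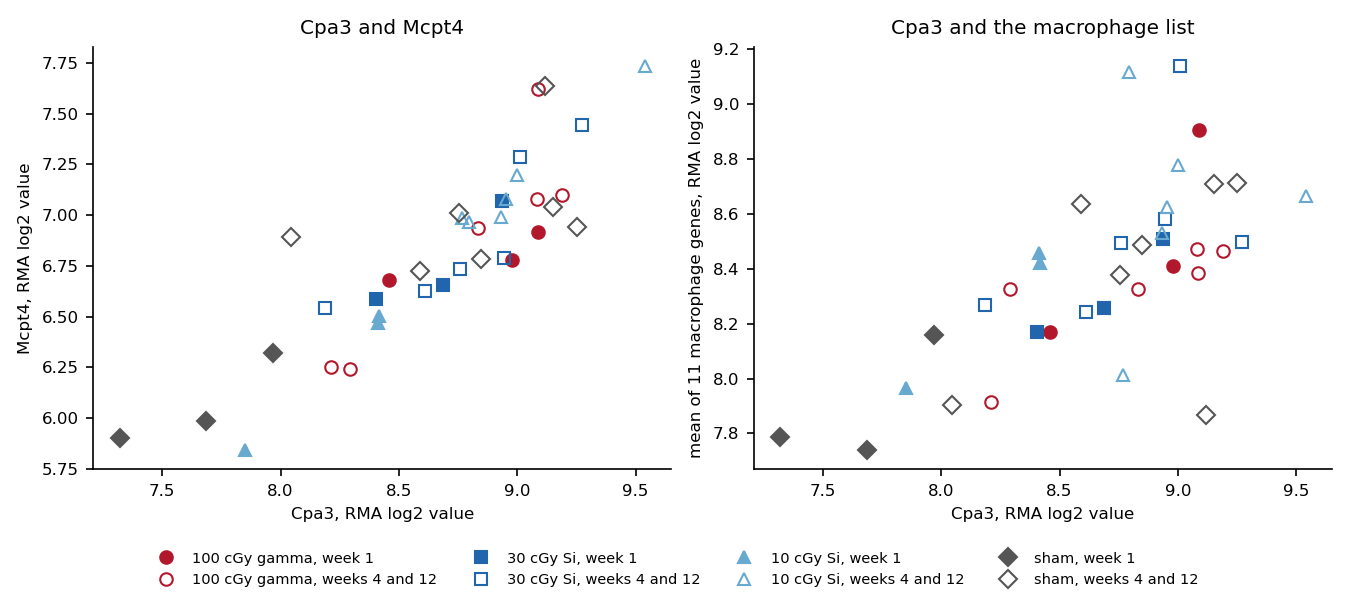
Cpa3 (RMA log2 value) of the 37 arrays against Mcpt4 and against the mean of 11 macrophage genes, with filled points for week 1 and open points for weeks 4 and 12. The points of Mcpt4 follow Cpa3 with r = 0.877, and the macrophage mean follows it with r = 0.672.

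The genes most like the proteases in pattern were ranked among the 13174 tested genes by Pearson's r over 37 arrays with the mean of Cpa3, Mcpt4, Cma1 and Tpsb2, each taken as its deviation from its own mean. Those 4 genes are part of the mean and stood at ranks 1, 2, 3 and 16, while Hdc stood at 2321, Kit at 5911 and Gata2 at 11006. Outside the members, Mrgprb1, which encodes a mast cell surface receptor, came first with r = 0.844. It was followed by Dcn (0.811), which encodes the matrix proteoglycan decorin, Scg3 (0.807), which encodes the granule protein secretogranin III, and Clec4a3 (0.806), a C-type lectin gene. The other six were Hexa (0.792), a lysosomal hexosaminidase, Abca9 (0.789), Cd209f (0.786), Ms4a4d (0.775), Clec4a1 (0.774) and E330013P04Rik (0.774). On the deviations from group means the 10 ranged between 0.586 and 0.779. Of the 10, 0 were called for the irradiations together at week 1, and Mrgprb1 rose by 0.62 ± 0.15 at week 4 and by 0.66 ± 0.15 at week 12 against week 1 (SE, limma adjusted p = 0.00242 and 0.000995). The rise was not particular to Mrgprb1. Dcn, Clec4a3, Hexa, Abca9, Cd209f, Ms4a4d and Clec4a1 were also called higher at week 4, where 25.8% of all genes were called. At week 12 Dcn, Scg3, Clec4a3, Hexa and Cd209f were, where 35.5% of all genes were called. The ranking used the same arrays, so these calls are not independent of it.

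Of 17 further genes of mast cell granules and surface, 13 had a probe set annotated with their symbol alone, and 9 were tested. The mucosal protease genes Mcpt1 and Mcpt2 were at means of 2.37 and 2.33, and Ctsg (cathepsin G) and Gata1 at 2.78 and 3.40, all below the limit. For the irradiations together at week 1, 0 of 9 were called and 1 passed at an unadjusted limma p under 0.05, the tryptase gene Tpsab1 at 0.43 ± 0.13 (SE, adjusted p = 0.264). Of all genes tested, 0.0759% were called there and 10.0% passed at the unadjusted p, so this count is near the share of all genes. Slc18a2, whose product loads histamine into granules, was at 0.29 ± 0.14 and Mrgprb2 at 0.28 ± 0.17 (SE). The median over the 13 was 0.09. At week 4 against week 1 Mrgprb1 and Mrgprb2 (0.33 ± 0.10, SE, limma adjusted p = 0.0138) rose, and both were also higher at week 12 than at week 1, Mrgprb2 by 0.28 ± 0.10, while Tpsab1 fell by 0.38 ± 0.08 (SE, limma adjusted p = 0.000631). These 2 of 9 called at week 4 and 3 of 9 at week 12 stand against 25.8% and 35.5% of all genes, and are no larger a share. The tryptases Tpsab1 and Tpsb2 were not among the proteases that rose.

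Of 19 genes that supply or relay mast cell signals, 17 were tested. For the irradiations together at week 1, 0 were called by limma, where 0.0759% of all genes were. At an unadjusted limma p under 0.05, 3 of the 17 passed, all higher, where 10.0% of all genes did. The 3 were Ltc4s, the leukotriene C4 synthase gene, at 0.51 ± 0.19 (SE), Alox5, the 5-lipoxygenase gene, at 0.52 ± 0.25 (SE), and Kitl, which encodes the ligand of Kit, at 0.25 ± 0.12 (SE). The median over the 17 was -0.14. At week 4 against week 1 Alox5ap rose by 0.44 ± 0.12 (limma adjusted p = 0.00794), while Csf2rb fell by 0.35 ± 0.11 (limma adjusted p = 0.0181) and Stat5b fell by 0.25 ± 0.08 (SE, limma adjusted p = 0.0206). At week 12 against week 1 2 rose, Kitl by 0.20 ± 0.07 and Il33 by 0.49 ± 0.17 (SE), and 4 fell, among them Stat5a, which fell by 0.34 ± 0.07 (SE, limma adjusted p = 0.000546). With 3 of 17 called at week 4 and 6 of 17 at week 12, the share was no larger than the 25.8% and 35.5% of all genes.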

How the data were processed

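Each of 37 samples of mammary gland RNA had its own Affymetrix array. The deposited values are log2 expression values, for which the submitters' processing notes name RMA and oligo as the authors' tools, and the versions are not given in the sources used here. They ranged between 0.817 and 13.8, and no further normalization was applied. Arrays carry no read depth, and their number limits the precision.

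The supplied platform annotation listed 23099 of 35556 probe sets, 21218 with 1 gene symbol and 1881 with several, and 12457 were not listed. Of those with 1 symbol, 21185 matched a RefSeq identifier and 0 symbols changed. A gene was read from the probe set with its symbol alone that had the highest mean. Genes with a mean above the 30th percentile (log2 4.04) were tested.

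A limma model (limma 3.58.1, R 4.3.3) with a mean for each of 12 groups was fitted to all arrays, with 25 residual and 3.40 prior degrees of freedom. Two-sided p-values were adjusted over the 13174 genes of each contrast by Benjamini and Hochberg's method, with a moderated F test for effects that differ between weeks. Correlations used Python 3.11.15 with scipy 1.17.1 and 100000 permutations. Cell type levels are means of the listed genes. The code was tested on simulated data.

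The 9 members and all gene lists were chosen with earlier results of these data known. Each member was described in every group, with differences where the unadjusted p was under 0.05 or, with none, for the smallest p. Of each other mast cell list up to 3 genes of smallest p were named, and beside the members the 10 genes most like the proteases. Genes that the report names beyond this, as values below the limit or as members that changed, were chosen after their values were seen. Alternatives were no filter, quantile normalization, averaging of all probe sets of a gene, array weights, a robust variance trend, a lymphocyte covariate, a block for the replicate number, a fit of the compared groups alone, and each array left out in turn. Contrasts of weeks within sham or irradiated glands and a fit without 2 sham arrays were added after the values were seen. Promoter sequences were copied from the RefSeq table, and motifs were searched on both strands.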

Additional observations from a re-analysis of the deposited data

Results flagged for a closer look

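For 4 members, within 1 irradiation, all 3 arrays of one week lay on one side of that week's sham mean and all 3 of another week on the other side. Differences between weeks were not tested in this count of arrays. In the moderated F test of limma, which covers all 6 differences of an effect between weeks, the adjusted p was 0.9996 for each of the 7 tested members, and Ms4a2 was below the limit for testing.

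Hdc differed from sham by 0.60 in 100 cGy gamma glands at week 1, by -0.26 at week 4 and by -0.39 at week 12. Kit differed by -0.63 at week 1 and by 0.31 at week 4 in 100 cGy gamma glands, and by -0.46 at week 1 and 0.17 at week 4 in 30 cGy Si glands. Tpsb2 differed by 0.32 at week 1, 0.16 at week 4 and -0.28 at week 12 in 30 cGy Si glands. Ms4a2 differed by 0.13 at week 1 and by -0.10 at week 12 in 100 cGy gamma glands. The week 1 values of gamma rays and of 30 cGy Si share the same 3 sham arrays, of which array 3 was the lowest for Hdc, Kit, Tpsb2 and Ms4a2.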

How the results depend on the processing

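With array weights 2 members were called after 30 cGy Si at week 1, 3 for the irradiations together at week 1 and 1 between weeks 12 and 4, where the model without weights called 0 in each. Calls over all genes also rose with the weights. They went from 0.0228% to 3.11% after 30 cGy Si, from 0.0759% to 1.65% for the irradiations together and from 1.64% to 4.1% between weeks 12 and 4. The same weights gave a median over the members of 0.092 for the later sham weeks against week 1 and of 0.14 for the difference between weeks in the irradiation effect. A fit of the sham arrays alone called 0 members at the later weeks, and so did a fit without sham array 3 of week 1 and sham array 1 of week 4. That last fit gave medians of 0.10 for the later sham weeks and 0.12 for the difference between weeks, and 4 members at an unadjusted limma p under 0.05 for the irradiations together at week 1. The cause of these shifts was not tested, and the reduced fits also hold fewer arrays. With each array left out in turn, the members at an unadjusted limma p under 0.05 at week 1 numbered 4 to 6 after gamma rays, 2 to 5 after 30 cGy Si, 1 to 3 after 10 cGy Si and 4 to 7 for the irradiations together. The later sham weeks then had 1 to 3 called members and a median of 0.088 to 0.38. Shares of all genes in these fits were not recorded. For the irradiations together at week 1 the difference of Cpa3 ran between 0.75 and 1.08 (adjusted limma p 0.146 to 0.390), that of Hdc between 0.53 and 0.78 (0.173 to 0.341) and that of Kit between -0.80 and -0.22 (0.251 to 0.815). The counts of called members at week 4 and week 12 against week 1, 4 and 6, were the same with every array left out. The correlation of Gata2 with Cpa3 turned to 0.049 on the deviations from group means, and that of Hdc was 0.492 there and that of Fcer1a 0.266. Without the 2 arrays farthest from the median of Cpa3, r was 0.374 for Ms4a2 and 0.319 for Fcer1a. The replicate number was also used as a block. The labels do not say what samples of one number share. The median correlation of their deviations was -0.0038 over 198 pairs, against -0.0067 over 429 pairs of unlike number. Single pairs of one number ranged between -0.604 and 0.652, so this median cannot show whether some of them share a batch. The replicate block called 5 members in irradiated glands at the later weeks, against 4 without it, and left every other count of called members as it was, among them 0 for each irradiation at week 1, 4 at week 4 and 6 at week 12 against week 1. The share of all genes called with the block was not recorded. The signal of Ms4a2 and Fcer1a near the bottom of the scale limits what their values can show.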
